A study of Arabidopsis thaliana with 20 samples.

Results

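Seedlings that lack the ethylene transcription factors EIN3 and EIL1 were compared after 4 h at 27 °C and at 21 °C, in 4 of the 20 libraries of the series. The double mutant carried the alleles ein3-1 and eil1-1, and both groups held whole green seedlings grown for 5 days in short days on medium with sucrose. The warmed group (ein3 eil1 at 27 °C, n = 2) was moved to 27 °C at 4 h after lights on (ZT4) and kept there until ZT8. The other group (ein3 eil1 at 21 °C, n = 2) stayed at 21 °C, and its hour of collection is not given in the labels. The same warming of the ethylene-insensitive mutant ein2 (allele ein2-5, n = 2 per temperature) and of wild type (Col-0, n = 2 per temperature) served to show where the ein3 eil1 response differed. The members are all genes that passed a filter on low counts, 21987 of the 36799 genes in the deposited tables.

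In Arabidopsis, mild warmth is known to promote elongation of stems and petioles through the transcription factor PIF4, which acts on auxin synthesis and response genes, while heat shock factors induce chaperones that keep proteins folded. Ethylene is a gaseous hormone. Its signal passes from receptors in the endoplasmic reticulum through CTR1 and EIN2 to the transcription factors EIN3 and EIL1, and seedlings that lack both are largely insensitive to the hormone. EIN3 and EIL1 are also known to take part in the control of iron uptake and of pigment and light-response genes in other settings.

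The sequences of 4 promoters show the kinds of gene on which the results turn. ASN1 (asparagine synthetase) stands for the rise of sugar starvation genes. CYP83A1 (a cytochrome P450 of aliphatic glucosinolate synthesis) and LTP2 (a lipid transfer protein) stand for the falls. TT4 (chalcone synthase, the entry enzyme of flavonoids) is a gene that moved in opposite directions in ein3 eil1 and wild type. Each is the 250 bases before the annotated start, 5′ to 3′ on the gene's strand, from the RefSeq TAIR10.1 genome. Capitals mark the G-box CACGTG and the evening element core AATATCT on either strand.
ASN1, chr3:17441432-17441681, minus strand: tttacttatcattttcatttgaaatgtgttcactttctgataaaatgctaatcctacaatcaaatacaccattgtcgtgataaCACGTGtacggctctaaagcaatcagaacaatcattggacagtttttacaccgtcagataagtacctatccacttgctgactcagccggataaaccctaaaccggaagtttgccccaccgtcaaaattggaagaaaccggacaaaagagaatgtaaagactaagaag
CYP83A1, chr4:7992430-7992679, minus strand: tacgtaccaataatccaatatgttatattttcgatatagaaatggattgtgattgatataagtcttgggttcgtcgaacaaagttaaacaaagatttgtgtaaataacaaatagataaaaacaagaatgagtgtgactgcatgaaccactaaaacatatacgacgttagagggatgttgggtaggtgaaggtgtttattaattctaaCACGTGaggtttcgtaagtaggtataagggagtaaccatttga
LTP2, chr2:16127926-16128175, plus strand: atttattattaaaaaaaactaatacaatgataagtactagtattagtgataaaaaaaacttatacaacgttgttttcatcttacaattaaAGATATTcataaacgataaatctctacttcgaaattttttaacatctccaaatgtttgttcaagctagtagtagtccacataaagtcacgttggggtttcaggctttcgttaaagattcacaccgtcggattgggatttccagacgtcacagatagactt
TT4, chr5:4488226-4488475, plus strand: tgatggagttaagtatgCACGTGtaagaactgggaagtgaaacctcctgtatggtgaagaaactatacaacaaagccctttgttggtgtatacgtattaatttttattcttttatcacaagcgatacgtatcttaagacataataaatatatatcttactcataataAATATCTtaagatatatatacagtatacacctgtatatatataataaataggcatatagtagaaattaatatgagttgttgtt
Over the window from 250 bases before to 50 bases after the start, the G-box CACGTG stood in 11.3% of 292 genes raised by at least 1 log2 unit at 27 °C in ein3 eil1. It stood in 6.91% of 362 nuclear genes lowered by as much, and in 8.76% of all 21861 promoters. The evening element core AATATCT stood in 11.3% of the raised and 11.6% of all promoters, and in 58 of the 362 lowered. The heat shock element pair GAANNTTC was found in 12.3%, 8.84% and 11.3% of the raised, lowered and all promoters. The EIN3-type word ATGTAC was found in 11.3%, 10.8% and 10.8%. Both strands were searched, overlaps between different motifs were allowed, and the shares are a description without a test.

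Counts per ein3 eil1 library came to 38080160 and 33483559 at 27 °C and 24153109 and 47566071 at 21 °C. Replicates lay close together. Among genes of 20 to 100 counts, their variance was 2.62 times the mean at 27 °C and 2.98 times at 21 °C, where counting both mates of a fragment gives about 2 by itself. The labels do not say whether replicates came from separate batches of plants, so the p-values measure the spread between these libraries, which may be technical. Genes annotated as ribosomal RNA took 1.05% and 1.14% of counts at 27 °C, against 2.55% and 2.69% at 21 °C. AT3G06365, which lies beside such genes, took 3.58% and 3.96% at 27 °C, against 9.50% and 10.02% at 21 °C. Of 115 chloroplast-encoded genes tested, 81 were lower and 2 higher at 27 °C. These transcripts moved with temperature in libraries made by poly(A) selection, and their part in the results below was not tested beyond the recount without them.

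The mutated genes served as a check of the labels. EIN3 had 34.9 and 30.6 CPM at 27 °C, against 24.5 and 22.6 CPM at 21 °C. Wild-type libraries had 109 and 101 CPM at 27 °C, against 81.4 and 82.1 CPM at 21 °C. All 4 mutant libraries were thus below all 4 wild-type libraries. Within the mutant, EIN3 transcript was higher at 27 °C (log2 fold change 0.49 ± 0.065, adjusted p = 2.07e-09). EIL1 had 22.8 and 21.98 CPM at 27 °C, against 22.3 and 24.2 CPM at 21 °C. Its wild-type values were 62.2 and 60.9 CPM at 27 °C, against 55.2 and 54.98 CPM at 21 °C. The EIL1 values of the mutant at 27 and 21 °C overlapped, and the gene was not called (log2 fold change -0.063 ± 0.073, adjusted p = 0.547). INO80, a chromatin remodeller named in the series title, was higher at 27 °C (log2 fold change 0.46 ± 0.077, adjusted p = 8.8e-07). LHP1, a reader of the polycomb mark, was higher too (log2 fold change 0.46 ± 0.13, adjusted p = 0.00254). The upstream signal carrier EIN2 was not called (log2 fold change 0.044 ± 0.062, adjusted p = 0.633).

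A large share of the transcriptome of ein3 eil1 differed between 27 and 21 °C. The hour of collection at 21 °C is not given, so temperature and time of day cannot be told apart for any gene. Warming stands below for this comparison of the 2 groups. At an adjusted p under 0.05 (edgeR quasi-likelihood test, Benjamini-Hochberg over all 21987 genes), 8083 genes were called, 36.8% of those tested. Of these, 3715 were higher (16.9%) and 4368 lower (19.9%) at 27 °C. Called genes had a median absolute change of 0.416 log2 units, with quartiles of 0.29 and 0.623. A change of 1 log2 unit or more was called in 677 genes (3.08%), and 292 of them were raised (1.33%) and 385 lowered (1.75%). The median over all genes tested was 0.003. These shares, 16.9% higher and 19.9% lower, are the background for the counts of each gene list given below. Here and below, the error of a log2 fold change is its SE, CPM is counts per 1000000 counts of the library after scaling, and warm and cool stand for 27 and 21 °C. The wide range of levels over which single genes moved is shown in the plot of change against level. In the authors' deposited table for the same comparison, 5719 genes had an adjusted p under 0.05, with 2474 higher and 3245 lower.

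**Figure D1:**
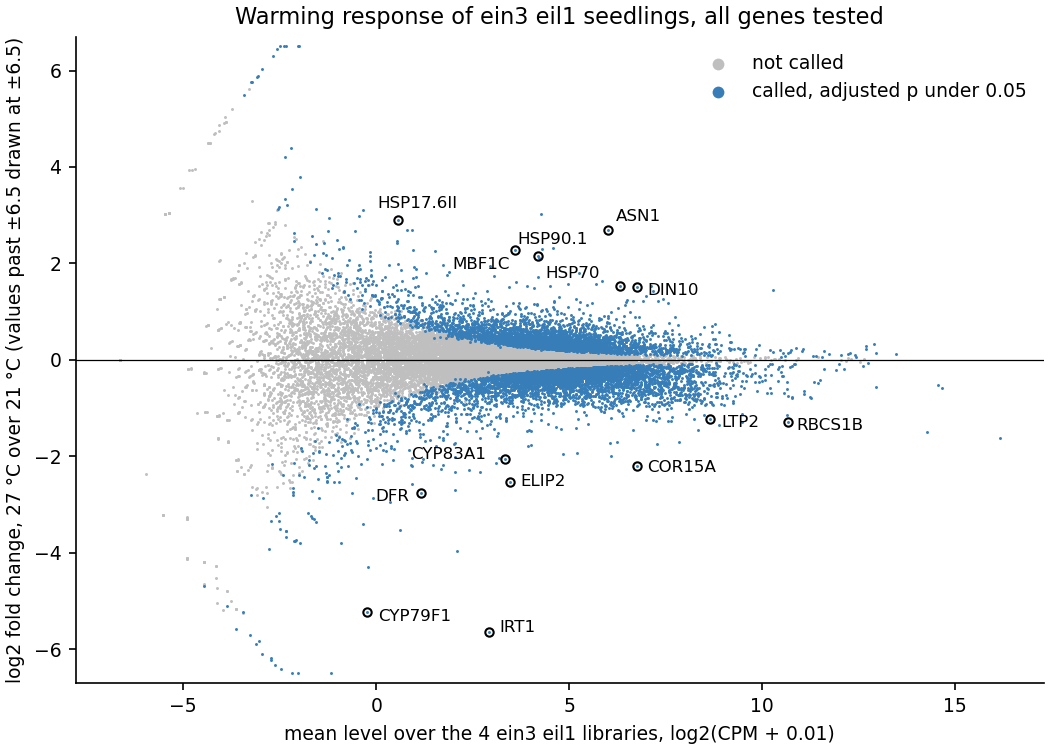
Log2 fold change of 27 over 21 °C in ein3 eil1 (vertical axis) against mean level in log2(CPM + 0.01) (horizontal axis) for each of the 21987 genes tested. Blue points are called genes and circles mark genes named in the text; IRT1 at -5.64 and CYP79F1 at -5.24 lie far below the others labelled, and HSP17.6II at 2.895 and ASN1 at 2.698 are the highest of the labelled genes.

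Heat-responsive chaperones rose. Of 21 tested genes on a list of heat shock factors, chaperones and heat-induced enzymes, 14 were higher and 1 lower in ein3 eil1 at 27 °C. Their median log2 fold change was 1.32, beside 16.9% higher and a median of 0.003 over all genes tested. The cytosolic chaperone HSP90.1 had 31.1 and 29.1 CPM at 27 °C, against 5.94 and 7.35 CPM at 21 °C. Both warm libraries lay far above both cool ones (log2 fold change 2.15 ± 0.092, adjusted p = 3.4e-32). HSP70, a general folding chaperone, had 117 and 120.4 CPM at 27 °C, against 39.2 and 42.4 CPM at 21 °C, and it rose as clearly (log2 fold change 1.53 ± 0.047, adjusted p = 9.17e-41). MBF1C, a transcriptional coactivator needed for heat tolerance, had 19.7 and 20.9 CPM at 27 °C, against 2.92 and 5.02 CPM at 21 °C. It too showed no overlap between the temperatures (log2 fold change 2.27 ± 0.13, adjusted p = 1.28e-24).

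Small heat shock proteins, which hold unfolding proteins in solution, were uneven. HSP17.6II had 2.68 and 2.499 CPM at 27 °C, against 0.371 and 0.332 CPM at 21 °C. This was the largest increase among the called genes with a symbol, at least 2 CPM at either temperature and replicates that did not overlap (log2 fold change 2.895 ± 0.32, adjusted p = 2.93e-12). HSP21 of the chloroplast had 1.29 and 1.48 CPM at 27 °C, against 0.186 and 0.142 CPM at 21 °C. This was a rise at low levels (log2 fold change 3.100 ± 0.57, adjusted p = 7.75e-06). HSP18.2 had 7.95 and 9.14 CPM at 27 °C, against 7.61 and 7.82 CPM at 21 °C. Its warm libraries lay only just above the cool ones, and it was not called (log2 fold change 0.14 ± 0.15, adjusted p = 0.487). The chaperones of the endoplasmic reticulum stood apart. BIP1 was not called (log2 fold change 0.079 ± 0.035, adjusted p = 0.0696). BIP2 was slightly lower (log2 fold change -0.13 ± 0.035, adjusted p = 0.00262). TIN1, a gene induced by tunicamycin and hence by stress in that compartment, had 5.17 and 4.17 CPM at 27 °C, against 1.11 and 0.9004 CPM at 21 °C. TIN1 rose in both replicates (log2 fold change 2.25 ± 0.23, adjusted p = 4.55e-13). Of the heat regulators, DREB2A rose (log2 fold change 0.71 ± 0.11, adjusted p = 9.93e-08). So did HSFB2A (log2 fold change 0.98 ± 0.11, adjusted p = 1.83e-11) and HSFA2 (log2 fold change 1.32 ± 0.41, adjusted p = 0.00751). HSFA7A was not called (log2 fold change 0.048 ± 0.17, adjusted p = 0.865). GOLS1, which starts raffinose synthesis, had 50.8 and 50.2 CPM at 27 °C, against 23.02 and 19.8 CPM at 21 °C (log2 fold change 1.25 ± 0.082, adjusted p = 2.74e-22). The calls of HSFA2 (0.88 without cool replicate 2 and 1.12 without warm replicate 1) and BIP2 (-0.11 without warm replicate 1) were lost when the named library was left out.

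Growth and auxin genes of the warm response rose by smaller amounts. Of 30 listed genes, 18 were higher and 2 lower (beside 16.9% and 19.9% over all genes), with a median of 0.42 log2 units. With the DESeq2 test or the replicate block 15 were called higher, and with the compared genotypes alone 19. Fewer were called higher when single ein3 eil1 libraries were left out, with medians of 0.372 to 0.428. PIF4, the central regulator, had 139 and 141 CPM at 27 °C, against 121 and 112 CPM at 21 °C. Each warm library was above each cool one (log2 fold change 0.27 ± 0.048, adjusted p = 2.11e-06). Its relative PIF7 was lower (log2 fold change -0.54 ± 0.083, adjusted p = 1.42e-07). PIF3 was not called (log2 fold change -0.013 ± 0.10, adjusted p = 0.941). The auxin synthesis gene YUC8 had 9.69 and 9.77 CPM at 27 °C, against 6.87 and 5.78 CPM at 21 °C (log2 fold change 0.64 ± 0.15, adjusted p = 0.000274). TAA1, the enzyme of the step before it, was lower (log2 fold change -0.53 ± 0.13, adjusted p = 0.000456). The transcripts of TAA1 and YUC8 thus moved apart. Of the other YUC genes listed, YUC9 was higher (log2 fold change 0.88 ± 0.36, adjusted p = 0.0482). YUC2 was not called (log2 fold change 0.47 ± 0.22, adjusted p = 0.0819).

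Among auxin and growth response genes on that list, increases prevailed. The Aux/IAA repressor IAA29 had 16.5 and 19.6 CPM at 27 °C, against 7.61 and 8.39 CPM at 21 °C (log2 fold change 1.17 ± 0.17, adjusted p = 1.48e-08). IAA2, of the same family, rose too (log2 fold change 0.79 ± 0.062, adjusted p = 3.85e-18). The auxin-conjugating enzyme gene GH3.5 rose as well (log2 fold change 0.83 ± 0.079, adjusted p = 1.57e-14). HFR1, an atypical bHLH protein that restrains PIF factors, had 33.5 and 31.3 CPM at 27 °C, against 15.2 and 15.3 CPM at 21 °C (log2 fold change 1.09 ± 0.11, adjusted p = 4.62e-14). In each of these the warm libraries were the higher ones. The wall-loosening expansin EXPA8 had 207 and 211 CPM at 27 °C, against 139.6 and 144 CPM at 21 °C (log2 fold change 0.56 ± 0.044, adjusted p = 2.11e-18). Its family as a whole went the other way. Of 23 expansin genes grouped by product name, 1 was called higher and 12 lower (median -0.36). Of the growth-promoting SAUR genes listed, SAUR19 rose (log2 fold change 0.65 ± 0.20, adjusted p = 0.00768), as did SAUR22 (log2 fold change 0.57 ± 0.16, adjusted p = 0.00265). SAUR20, SAUR21, SAUR23 and SAUR24 were not called. These genes are close copies of each other, which makes their separate counts uncertain. The call of SAUR19 was lost without cool or warm replicate 2 (0.519 and 0.525) and that of SAUR22 without cool replicate 1 (0.44).

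Sugar starvation genes rose as a group, on medium that held sucrose. Of 15 tested, 12 were higher and 1 lower (16.9% and 19.9% over all genes), with a median of 1.099 log2 units. ASN1, the asparagine synthetase induced in darkness and when sugar runs low, had 111 and 111 CPM at 27 °C, against 18.9 and 15.7 CPM at 21 °C. The warm libraries stood far above the cool ones (log2 fold change 2.698 ± 0.10, adjusted p = 3.8e-37). The dark-inducible gene DIN1 had 39.8 and 39.1 CPM at 27 °C, against 8.54 and 7.44 CPM at 21 °C (log2 fold change 2.32 ± 0.10, adjusted p = 3.23e-32). DIN10 had 158 and 159 CPM at 27 °C, against 56.5 and 54.8 CPM at 21 °C (log2 fold change 1.51 ± 0.049, adjusted p = 1.26e-39). Neither gene showed any overlap between the temperatures. MCCA, a subunit of the carboxylase that breaks down leucine, had 32.7 and 34.5 CPM at 27 °C, against 10.7 and 12.3 CPM at 21 °C (log2 fold change 1.53 ± 0.10, adjusted p = 2.03e-22). BT2, a nutrient-responsive adaptor protein, had 59.9 and 58.3 CPM at 27 °C, against 19.8 and 15.1 CPM at 21 °C (log2 fold change 1.79 ± 0.09, adjusted p = 1.99e-28). Each of these 5 genes had both warm libraries above both cool ones. The trehalose-phosphate synthase-like genes TPS8 (log2 fold change 1.13 ± 0.072, adjusted p = 9.07e-23) and TPS11 (log2 fold change 1.099 ± 0.084, adjusted p = 7.18e-19) were higher. TPS9 rose less (log2 fold change 0.52 ± 0.068, adjusted p = 9.55e-10), and TPS10 was not called. EXO, a growth gene, was the member that fell (log2 fold change -0.37 ± 0.066, adjusted p = 2.77e-06).

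Outside the lists, the largest increases included FLP1, a small FPF1-like protein (log2 fold change 2.701 ± 0.45, adjusted p = 6.27e-07), and the B-box protein gene BBX17 (log2 fold change 2.11 ± 0.19, adjusted p = 2.06e-15). Others were the co-chaperone gene Hop3 (log2 fold change 2.103 ± 0.10, adjusted p = 5.98e-29) and the senescence regulator NAP (log2 fold change 1.88 ± 0.32, adjusted p = 1.58e-06). The same list held the starch-related orphan gene QQS (log2 fold change 1.796 ± 0.34, adjusted p = 1.27e-05).

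**Figure D2:**
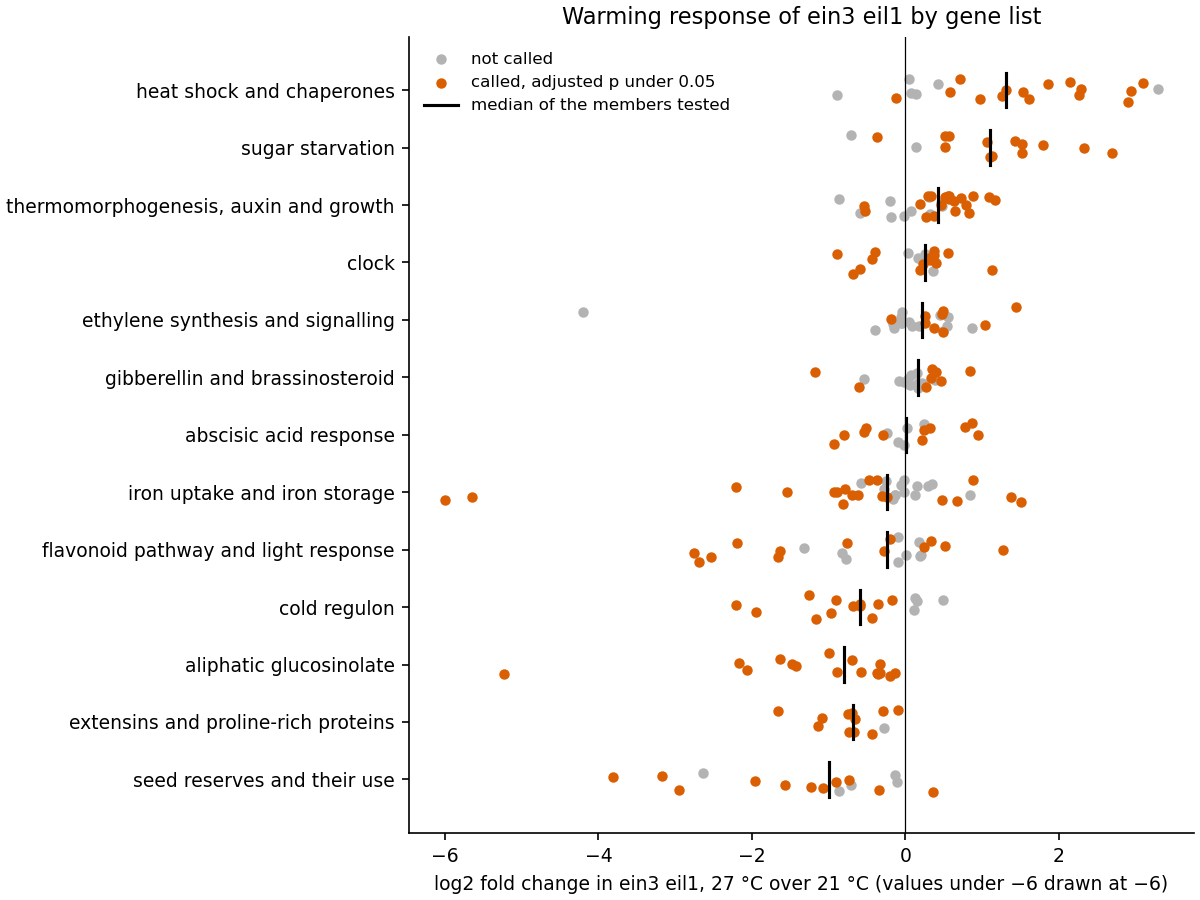
Log2 fold changes of 27 over 21 °C in ein3 eil1 (horizontal axis) for the tested members of 13 gene lists (rows). Orange points were called, grey points were not, and black bars are medians. The heat and sugar starvation lists have medians of 1.32 and 1.099, and the seed reserve list has the lowest, -0.99.

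Genes of cold acclimation fell. Of 16 listed genes, 12 were lower and none was higher (beside 19.9% lower over all genes), with a median of -0.59. COR15A, a chloroplast protein that protects membranes in frost, had 38.99 and 37.99 CPM at 27 °C, against 170.1 and 184 CPM at 21 °C (log2 fold change -2.201 ± 0.066, adjusted p = 2.77e-41). Its copy COR15B had 12.6 and 10.9 CPM at 27 °C, against 46.4 and 44.6 CPM at 21 °C (log2 fold change -1.95 ± 0.12, adjusted p = 5.79e-23). The dehydration and cold marker RD29A had 87.4 and 83.1 CPM at 27 °C, against 205 and 202 CPM at 21 °C (log2 fold change -1.25 ± 0.042, adjusted p = 9.34e-39). In each of these genes the warm libraries lay well below the cool ones. Of their regulators, CBF3 was lower (log2 fold change -0.59 ± 0.22, adjusted p = 0.0323). CBF1 (log2 fold change 0.11 ± 0.43, adjusted p = 0.875) and CBF2 (log2 fold change 0.49 ± 0.22, adjusted p = 0.069) were not called. The fatty acid desaturases, which adjust membranes to temperature, fell in 4 of 7 cases. FAD5 (log2 fold change -0.54 ± 0.037, adjusted p = 8.35e-21) and FAD8 (log2 fold change -0.36 ± 0.062, adjusted p = 1.7e-06) were among them, whereas FAD2 was higher (log2 fold change 0.22 ± 0.029, adjusted p = 9.88e-10). The call of CBF3 was lost without any of cool replicate 1, warm replicate 1 or warm replicate 2 (-0.47 to -0.59). CBF2 was called, at 0.62, with the trend on gene length removed and, at 0.496, with the compared genotypes alone.

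Several iron uptake genes of the root were lower at 27 °C. Of 33 tested genes of iron uptake and storage, 14 were lower, 5 higher and 14 not called (19.9% lower and 16.9% higher over all genes), with a median of -0.23. Without cool replicate 2 or warm replicate 2 the higher ones numbered 3. IRT1, the iron transporter of the root epidermis, had 0.199 and 0.398 CPM at 27 °C, against 15.97 and 13.7 CPM at 21 °C. This was the largest decrease under the rule used for HSP17.6II (log2 fold change -5.64 ± 0.36, adjusted p = 3.02e-22). The 2 cool ein3 eil1 libraries were the ones with a sizeable level. IRT2, a related transporter, was not called (log2 fold change -0.051 ± 0.38, adjusted p = 0.939). In ein2, IRT1 had 0 and 0 CPM at 27 °C, against 0.0629 and 0 CPM at 21 °C. In wild type it had 0 and 0.177 CPM at 27 °C, against 0 and 0 CPM at 21 °C. FRO2, the ferric chelate reductase that works with IRT1, had 1.54 and 0.795 CPM at 27 °C, against 3.71 and 3.18 CPM at 21 °C (log2 fold change -1.54 ± 0.36, adjusted p = 0.000315). NAS2, which makes the iron chelator nicotianamine, had 0.894 and 0.454 CPM at 27 °C, against 2.69 and 3.55 CPM at 21 °C (log2 fold change -2.205 ± 0.38, adjusted p = 1.93e-06). CYP82C4, a P450 of iron-mobilising coumarin synthesis, had 0 counts in both warm libraries, against 52 counts in the cool ones. Set against a floor of 3 counts over the warm group, it was 20.5-fold lower at 27 °C, a value that depends on the floor chosen. It had 0 CPM in all ein2 and wild-type libraries. NAS1 (log2 fold change -0.79 ± 0.065, adjusted p = 1.81e-17) and NAS4 (log2 fold change -0.88 ± 0.12, adjusted p = 3.37e-09) also fell. The proton pump gene AHA2 had 263 and 266 CPM at 27 °C, against 326 and 328 CPM at 21 °C (log2 fold change -0.31 ± 0.031, adjusted p = 1.53e-13).

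Of 4 regulators of iron uptake described here, 2 were higher and 2 were not called. FIT, the root regulator of IRT1 and FRO2, had 5.41 and 5.85 CPM at 27 °C, against 5.76 and 5.69 CPM at 21 °C and was not called (log2 fold change -0.023 ± 0.18, adjusted p = 0.941). Its partner BHLH39 had 8.69 and 8.29 CPM at 27 °C, against 2.79 and 3.65 CPM at 21 °C (log2 fold change 1.38 ± 0.24, adjusted p = 1.44e-06). BHLH101 was higher as well (log2 fold change 1.501 ± 0.51, adjusted p = 0.0155), and BHLH38 was not called (log2 fold change 0.13 ± 0.58, adjusted p = 0.896). The reductase gene FRO3 rose (log2 fold change 0.67 ± 0.076, adjusted p = 9.37e-12), and so did BTS, a ubiquitin ligase that senses iron (log2 fold change 0.47 ± 0.066, adjusted p = 7.26e-09). Ferritins, which store iron, fell as well. FER1 had 54.8 and 50.5 CPM at 27 °C, against 89.7 and 95.04 CPM at 21 °C (log2 fold change -0.81 ± 0.049, adjusted p = 5.95e-24). FER3 had 28.8 and 27.9 CPM at 27 °C, against 52.2 and 55.4 CPM at 21 °C (log2 fold change -0.93 ± 0.06, adjusted p = 1.47e-22). FER4 had 14.8 and 15.6 CPM at 27 °C, against 19.6 and 19.8 CPM at 21 °C, the smallest change of the 3 (log2 fold change -0.38 ± 0.081, adjusted p = 9.12e-05). Summed over the 19 root markers tested, the level was 2997 and 2985 CPM at 27 °C and 2938 and 2931 CPM at 21 °C. Of these markers 2 were higher and 4 lower, with a median of -0.04, and none was at 0 in both groups. A lower level in whole seedlings cannot tell fewer cells of a kind apart from less RNA per cell. BHLH101 was not called without cool replicate 2 (1.22) or warm replicate 2 (1.04).

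Aliphatic glucosinolate genes, which make sulfur-rich defence compounds from methionine, fell. Of 16 tested, 16 were lower (19.9% over all genes), with a median of -0.79. With the compared genotypes alone 14 were called lower, and with the replicate block 15. Fewer than 16 were also called lower when single ein3 eil1 libraries were left out, with medians of -0.729 to -0.939. This list was drawn up after some of these values had been seen and describes them only. CYP79F1, which commits chain-elongated methionine to the pathway, had 0.0248 and 0.0568 CPM at 27 °C, against 1.67 and 1.61 CPM at 21 °C (log2 fold change -5.24 ± 0.53, adjusted p = 2.22e-13). Its warm libraries held 3 counts in all, against 104 in the cool ones. The ratio was 0.0244, with an exact 95% interval of 0.00494 to 0.0732. That interval takes each count as independent, though both mates of a fragment were counted, so it is too narrow even for counting error. Its copy CYP79F2 had 1.56 and 1.65 CPM at 27 °C, against 5.38 and 4.69 CPM at 21 °C (log2 fold change -1.63 ± 0.18, adjusted p = 7.75e-12). The copies are similar in sequence, so the division of reads between them is uncertain. CYP83A1, which takes the next step, had 3.92 and 3.81 CPM at 27 °C, against 16.8 and 15.6 CPM at 21 °C (log2 fold change -2.06 ± 0.13, adjusted p = 5.02e-23). Genes of methionine chain elongation fell too. BCAT4 had 0.348 and 0.199 CPM at 27 °C, against 1.11 and 1.35 CPM at 21 °C (log2 fold change -2.16 ± 0.39, adjusted p = 4.29e-06). IMD1 had 8.49 and 8.52 CPM at 27 °C, against 22.9 and 24.2 CPM at 21 °C (log2 fold change -1.47 ± 0.092, adjusted p = 2.53e-23). MAM1 had 5.61 and 4.998 CPM at 27 °C, against 8.82 and 10.6 CPM at 21 °C (log2 fold change -0.89 ± 0.13, adjusted p = 1.25e-08). Their levels at 27 and 21 °C did not overlap. The transcription factor gene MYB29 had 4.02 and 3.18 CPM at 27 °C, against 9.01 and 10.2 CPM at 21 °C (log2 fold change -1.42 ± 0.18, adjusted p = 2.58e-10). Its relative MYB28 fell less (log2 fold change -0.34 ± 0.069, adjusted p = 4.23e-05). Indole glucosinolate genes behaved otherwise. Of 6 tested, 3 were higher (16.9% over all genes), among them CYP79B3 (log2 fold change 0.41 ± 0.046, adjusted p = 9.02e-12) and the regulator MYB51 (log2 fold change 1.06 ± 0.19, adjusted p = 2.8e-06). CYP83B1 was lower (log2 fold change -0.48 ± 0.047, adjusted p = 4.27e-14).

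Seed reserve and lipid genes were lower in the warm mutant. Of 16 listed genes, 10 were lower and 1 higher (19.9% and 16.9% over all genes), with a median of -0.99. In ein2, 10 were lower and 2 higher, and in wild type 2 were lower and 4 higher. LTP2, a cuticle-associated lipid transfer protein, had 243 and 241 CPM at 27 °C, against 576 and 556 CPM at 21 °C (log2 fold change -1.23 ± 0.028, adjusted p = 5.64e-49). LTP3 had 48.7 and 49.8 CPM at 27 °C, against 94.3 and 90.3 CPM at 21 °C (log2 fold change -0.90 ± 0.06, adjusted p = 9.36e-22). ICL, isocitrate lyase of the glyoxylate cycle that turns seed oil into sugar, had 26.4 and 26.7 CPM at 27 °C, against 56.6 and 55.7 CPM at 21 °C (log2 fold change -1.08 ± 0.038, adjusted p = 2.85e-37). Its partner MLS was not called (log2 fold change -0.12 ± 0.062, adjusted p = 0.144). PCK1, a later step on the way to sugar, was higher (log2 fold change 0.36 ± 0.038, adjusted p = 8.73e-13). Genes on the way from oil to sugar thus moved in different directions. The cruciferin storage protein gene CRA1 had 3.48 and 5.34 CPM at 27 °C, against 14.3 and 12.1 CPM at 21 °C (log2 fold change -1.57 ± 0.11, adjusted p = 1.77e-20). CRU3, another cruciferin, had 0.149 and 0.454 CPM at 27 °C, against 2.04 and 2.42 CPM at 21 °C (log2 fold change -2.95 ± 0.29, adjusted p = 4.59e-14). Summed over the 9 seed markers, of which 5 were lower and none higher, the level was 15.1 and 17.5 CPM at 27 °C and 31.01 and 28.5 CPM at 21 °C. In ein2, where 5 of the 9 were lower as well, it was 81.7 and 79.02 CPM in warm and 147 and 155 CPM in cool libraries. It was 2.51 and 1.97 CPM in warm and 2.44 and 2.72 CPM in cool wild type. Whether seed debris or residual seed messages took part was not tested. Albumin genes SESA1 to SESA5 are near-identical and their counts are uncertain.

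Flavonoid and light-response genes moved in both directions. Of 22 tested, 4 were higher, 9 lower and 9 not called (16.9% higher and 19.9% lower over all genes). The enzyme genes TT4, FLS1 and TT5 rose. TT4 had 166 and 165 CPM at 27 °C, against 134 and 129 CPM at 21 °C (log2 fold change 0.33 ± 0.037, adjusted p = 4.32e-12). FLS1, which makes flavonols, had 38.000 and 34.8 CPM at 27 °C, against 25.1 and 25.7 CPM at 21 °C (log2 fold change 0.52 ± 0.071, adjusted p = 5.23e-09). TT5 was higher by less (log2 fold change 0.24 ± 0.08, adjusted p = 0.0142). Their regulator MYB12 rose as well (log2 fold change 1.28 ± 0.17, adjusted p = 4.26e-09). The anthocyanin genes DFR, LDOX and TT19 fell. DFR had 0.546 and 0.596 CPM at 27 °C, against 3.99 and 3.79 CPM at 21 °C (log2 fold change -2.76 ± 0.22, adjusted p = 3.77e-18). LDOX had 0.944 and 1.08 CPM at 27 °C, against 4.18 and 4.88 CPM at 21 °C (log2 fold change -2.19 ± 0.19, adjusted p = 9.81e-17). TT19, which helps to bring the pigment into the vacuole, had 1.04 and 1.14 CPM at 27 °C, against 7.33 and 6.82 CPM at 21 °C (log2 fold change -2.69 ± 0.17, adjusted p = 2.13e-22). PAP1, an activator of anthocyanin genes, fell as well (log2 fold change -1.67 ± 0.23, adjusted p = 5.67e-09). ELIP2, a light-stress protein of the thylakoid, had 3.18 and 3.46 CPM at 27 °C, against 16.9 and 20.9 CPM at 21 °C (log2 fold change -2.53 ± 0.11, adjusted p = 5.55e-32). ELIP1 fell by far less (log2 fold change -0.28 ± 0.077, adjusted p = 0.00255). TT5 was not called without cool replicate 1 (0.18) or warm replicate 2 (0.23), nor ELIP1 without cool replicate 1 (-0.19) or warm replicate 1 (-0.22).

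Among photosynthesis genes encoded in the nucleus, 8 of 23 were higher and 10 lower (16.9% and 19.9% over all genes), with a median of -0.049. RBCS1B, a small subunit of Rubisco, had 951 and 932 CPM at 27 °C, against 2321 and 2281 CPM at 21 °C (log2 fold change -1.29 ± 0.022, adjusted p = 3.75e-56). RBCS1A had 19788 and 19549 CPM at 27 °C, against 28092 and 28425 CPM at 21 °C (log2 fold change -0.52 ± 0.014, adjusted p = 1.52e-43). RBCS3B had 11719 and 11552 CPM at 27 °C, against 10725 and 10800.0 CPM at 21 °C (log2 fold change 0.11 ± 0.016, adjusted p = 2.52e-08). Copies of the same subunit thus moved in both directions. The antenna genes LHCB1.1 (log2 fold change -0.57 ± 0.018, adjusted p = 1.52e-40) and LHCB1.3 (log2 fold change -0.57 ± 0.015, adjusted p = 4.37e-45) fell. LHCA1 of photosystem I rose (log2 fold change 0.34 ± 0.018, adjusted p = 1.95e-27). These are multigene families whose reads may be divided between copies.

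**Figure D3:**
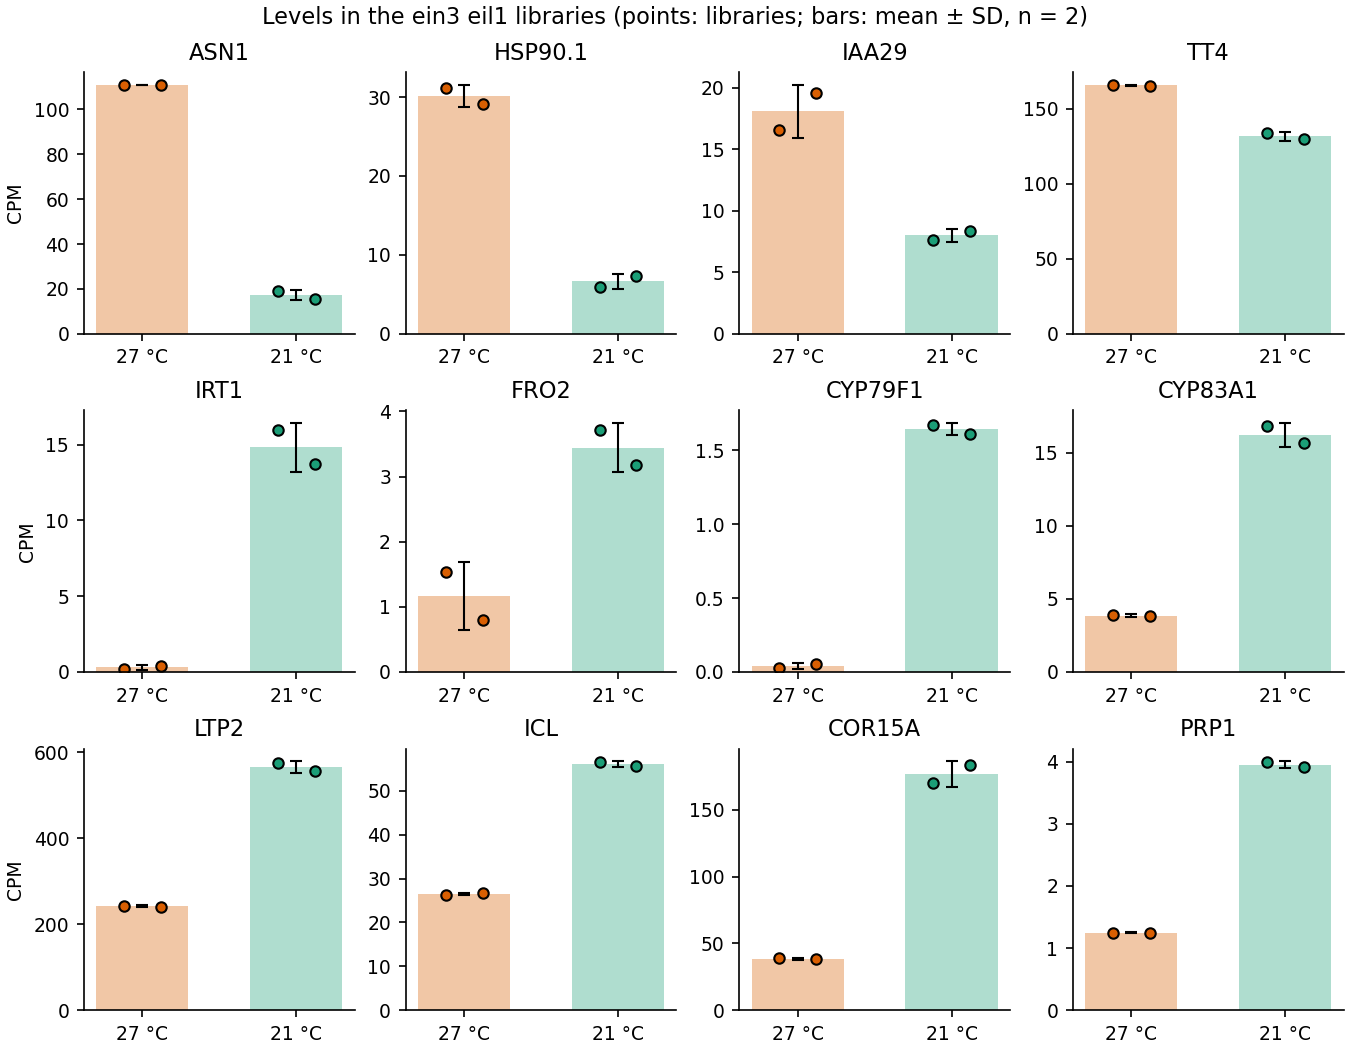
CPM (vertical axes, from 0) of 12 genes in the ein3 eil1 libraries at 27 °C (left) and 21 °C (right). Points are libraries, bars are means and error bars SD (n = 2). ASN1, HSP90.1, IAA29 and TT4 lie higher at 27 °C, and the other 8 genes lower, with no overlap between the temperatures in any panel.

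Extensins and proline-rich proteins, which build root-hair and other cell walls, were lower at 27 °C. Of 12 genes so named by their symbols, 11 were lower and none higher (19.9% lower over all genes), with a median of -0.68. In ein2, 8 were lower and 1 higher, with a median of -0.32. The list was taken up after several of its values had been seen. PRP4 had 999 and 1003 CPM at 27 °C, against 2177 and 2228 CPM at 21 °C (log2 fold change -1.14 ± 0.029, adjusted p = 1.03e-45). PRP2 had 38.3 and 37.9 CPM at 27 °C, against 80.6 and 80.8 CPM at 21 °C (log2 fold change -1.08 ± 0.061, adjusted p = 2.15e-25). PRP1 had 1.24 and 1.25 CPM at 27 °C, against 3.99 and 3.91 CPM at 21 °C (log2 fold change -1.66 ± 0.21, adjusted p = 4.39e-10). The decreases of the 3 genes held at levels that differed widely. EXT4 had 194 and 193 CPM at 27 °C, against 312 and 336 CPM at 21 °C (log2 fold change -0.75 ± 0.045, adjusted p = 7.89e-24). XTH20, an enzyme that cuts and rejoins xyloglucan, had 3.13 and 3.12 CPM at 27 °C, against 15.7 and 12.2 CPM at 21 °C (log2 fold change -2.14 ± 0.16, adjusted p = 1.19e-19). The sugar transporter gene SWEET13 had 1.09 and 1.08 CPM at 27 °C, against 5.94 and 4.597 CPM at 21 °C (log2 fold change -2.26 ± 0.27, adjusted p = 1.03e-10).

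Ethylene genes outside the mutated pair moved little. Of 26 tested, 8 were higher and 1 lower (16.9% and 19.9% over all genes), with a median of 0.21. The synthesis gene ACS8 had 9.49 and 8.18 CPM at 27 °C, against 5.01 and 3.74 CPM at 21 °C (log2 fold change 1.04 ± 0.20, adjusted p = 1.54e-05). The last-step enzyme gene ACO4 was higher (log2 fold change 0.50 ± 0.041, adjusted p = 2.83e-17). ARGOS, a negative feedback regulator of ethylene response, had 2.16 and 2.04 CPM at 27 °C, against 0.789 and 0.758 CPM at 21 °C (log2 fold change 1.45 ± 0.26, adjusted p = 3.91e-06). The receptor ETR1 was not called (log2 fold change 0.17 ± 0.084, adjusted p = 0.102). Nor were the receptors ERS1 (log2 fold change -0.06 ± 0.085, adjusted p = 0.633) and EIN4 (log2 fold change -0.042 ± 0.12, adjusted p = 0.833). The F-box genes that target EIN3 protein moved apart, EBF2 higher (log2 fold change 0.37 ± 0.13, adjusted p = 0.0193) and EBF1 lower (log2 fold change -0.18 ± 0.063, adjusted p = 0.0148). Both calls were lost when single libraries were left out. EBF2 had 0.21 without cool replicate 1 and 0.20 without warm replicate 2, and EBF1 had -0.068 without cool replicate 2 and -0.15 without warm replicate 1.

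Clock genes changed in 15 of 19 cases, 10 higher and 5 lower (16.9% and 19.9% over all genes), with a median of 0.26. PRR5 had 34.1 and 35.3 CPM at 27 °C, against 54.4 and 56.7 CPM at 21 °C (log2 fold change -0.68 ± 0.073, adjusted p = 1.22e-12). FKF1 had 10.7 and 11.1 CPM at 27 °C, against 19.5 and 20.7 CPM at 21 °C (log2 fold change -0.89 ± 0.11, adjusted p = 4.63e-10). In contrast, LNK2 had 159 and 159.9 CPM at 27 °C, against 109 and 109 CPM at 21 °C (log2 fold change 0.55 ± 0.051, adjusted p = 5.82e-15), and PRR7 was higher (log2 fold change 0.31 ± 0.042, adjusted p = 2.99e-09). The hour of collection at 21 °C is not given, so temperature and time of day cannot be told apart for these genes, nor for those of the other lists. Of 16 abscisic acid genes, 6 were higher (16.9% over all genes), such as the phosphatase HAB1 (log2 fold change 0.86 ± 0.081, adjusted p = 7.78e-15) and the synthesis enzyme NCED3 (log2 fold change 0.94 ± 0.12, adjusted p = 1.27e-09). Another 5 were lower (19.9% over all genes), such as RD22 (log2 fold change -0.93 ± 0.033, adjusted p = 8.53e-37) and RAB18 (log2 fold change -0.79 ± 0.049, adjusted p = 3.18e-23), and without cool replicate 2 or warm replicate 1 the lower ones numbered 2. Of 19 gibberellin and brassinosteroid genes 8 were called, 42.1% of them and near the 36.8% over all genes. Of these 6 were higher, among them GA3OX1 (log2 fold change 0.85 ± 0.12, adjusted p = 1.07e-08) and CPD (log2 fold change 0.47 ± 0.048, adjusted p = 2.29e-13). The 2 lower ones, GA2OX1 (log2 fold change -1.18 ± 0.18, adjusted p = 1.31e-07) and GA2OX2 (log2 fold change -0.61 ± 0.20, adjusted p = 0.00968), inactivate gibberellin, and without warm replicate 2 a single one was called. Of 13 chromatin genes, 5 were higher and 3 lower, and the lower ones were H2A.Z histone genes. Without warm replicate 1 the higher ones numbered 3, and with the length trend removed 3 were higher and 1 lower. HTA11 had 32.7 and 31.1 CPM at 27 °C, against 55.7 and 48.3 CPM at 21 °C (log2 fold change -0.70 ± 0.069, adjusted p = 9.75e-14). HTA8 (log2 fold change -0.42 ± 0.11, adjusted p = 0.00166) and HTA9 (log2 fold change -0.16 ± 0.048, adjusted p = 0.00512) fell by less. With a trend of the fold changes in gene length removed, HTA9 (0.012 log2 units) and HTA8 (-0.26) were no longer called. GA2OX2 was not called without warm replicate 2 (-0.55), nor HTA9 without cool replicate 1 (-0.11) or warm replicate 2 (-0.15).

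The warming responses of ein3 eil1, ein2 and wild type were compared in a single fit. Warming was called in 5965 genes of ein2 (27.1%), where 2584 were higher (11.8%) and 3381 lower (15.4%), and in 8610 of wild type (39.2%), where 4137 were higher (18.8%) and 4473 lower (20.3%). Of the genes higher at 27 °C in ein3 eil1, 2301 were also called higher in wild type (61.9% of those of ein3 eil1 and 55.6% of those of wild type). Of the lower genes, 2985 were shared (68.3% and 66.7%), while 74 raised and 135 lowered genes of ein3 eil1 were called in the opposite direction in wild type. With ein2, 1283 raised genes were shared (34.5% of those of ein3 eil1 and 49.7% of those of ein2) and 1973 lowered ones (45.2% and 58.4%), while 148 raised and 250 lowered genes of ein3 eil1 were called in the opposite direction in ein2. The difference of the responses was called for 2080 genes (9.46%), with 894 more positive (4.07%) and 1186 more negative (5.39%) in ein3 eil1. Against ein2 the difference was called for 3912 genes (17.8%), with 1746 more positive (7.94%) and 2166 more negative (9.85%). Both differences use the same 4 ein3 eil1 libraries. The shares of differences over all genes are the background for the counts of differences given below. A difference given below is the log2 fold change of ein3 eil1 minus that of wild type or ein2, with its SE.

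Several of the decreases above differed from wild type. Of the 16 aliphatic glucosinolate genes tested, 11 responded more negatively in ein3 eil1 than in wild type and 11 more negatively than in ein2. CYP83A1 had 27.8 and 25.9 CPM at 27 °C, against 25.5 and 32.8 CPM at 21 °C in ein2. In wild type it had 13.6 and 16.1 CPM at 27 °C, against 17.3 and 17.7 CPM at 21 °C, and warm and cool libraries lay closer together (difference -1.82 ± 0.17, adjusted p = 1.43e-13 against wild type). IMD1 also responded more negatively than in wild type (difference -1.49 ± 0.12, adjusted p = 7.5e-17). CYP79F1 had 12.5 and 12.7 CPM at 27 °C, against 10.8 and 8.94 CPM at 21 °C in ein2. In wild type it had 2.27 and 2.33 CPM at 27 °C, against 2.56 and 2.33 CPM at 21 °C, with warm and cool libraries close together (difference -5.15 ± 0.62, adjusted p = 1.02e-09 against wild type).

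Lipid transfer, oil use and wall genes differed as well. LTP2 had 827 and 843 CPM at 27 °C, against 909.9 and 945 CPM at 21 °C in ein2. Wild type had 772 and 757 CPM at 27 °C, against 806 and 799 CPM at 21 °C (difference -1.15 ± 0.038, adjusted p = 2.17e-37 against wild type). LTP4 had 17.5 and 16.02 CPM at 27 °C, against 26.6 and 29.1 CPM at 21 °C in ein3 eil1. It was higher in the warmth in wild type, with 9.71 and 7.25 CPM at 27 °C, against 2.86 and 3.49 CPM at 21 °C (difference -2.14 ± 0.18, adjusted p = 1.32e-15). ICL was lower in ein3 eil1 and had 312 and 298 CPM at 27 °C, against 253 and 252 CPM at 21 °C in wild type (difference -1.35 ± 0.047, adjusted p = 3.4e-36). Of the 12 extensin and proline-rich genes, 12 responded more negatively than in wild type, where 9 were higher. Against ein2, 7 responded more negatively and 1 more positively. EXT12 had 5.76 and 6.13 CPM at 27 °C, against 8.73 and 9.904 CPM at 21 °C in ein3 eil1. Its levels in wild type were 56.9 and 53.7 CPM at 27 °C, against 29.2 and 29.6 CPM at 21 °C (difference -1.58 ± 0.14, adjusted p = 4.15e-14). Of the 33 iron genes, 9 responded more negatively and none more positively than in wild type (5.39% and 4.07% over all genes). Against ein2 the counts were 4 more negative and 5 more positive (9.85% and 7.94% over all genes). In ein2 itself 11 iron genes were lower and 3 higher. AHA2, one of these, had 423 and 421 CPM at 27 °C, against 363 and 359 CPM at 21 °C in wild type (difference -0.53 ± 0.044, adjusted p = 4.64e-16).

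Other genes fell in wild type and not, or less, in ein3 eil1. Of the 22 flavonoid and light genes, 9 responded more positively than in wild type and none more negatively, and against ein2 the counts were 11 and 1. TT4 had 297 and 302 CPM at 27 °C, against 452 and 453 CPM at 21 °C in ein2. Wild type showed 168 and 161 CPM at 27 °C, against 278 and 274 CPM at 21 °C for this gene, so that it was lower in the warmth in both. It rose in ein3 eil1 (difference 1.08 ± 0.051, adjusted p = 2.68e-28 against wild type). The same held against ein2 (difference 0.93 ± 0.05, adjusted p = 3.88e-25). FLS1 (difference 1.03 ± 0.10, adjusted p = 2.35e-13) and TT5 (difference 1.07 ± 0.11, adjusted p = 6.63e-12) differed from wild type in the same way. ELIP1 had 21.8 and 23.63 CPM at 27 °C, against 29.7 and 25.9 CPM at 21 °C in ein3 eil1. The wild-type fall was far larger, with 18.9 and 23.9 CPM at 27 °C, against 106 and 109 CPM at 21 °C (difference 2.06 ± 0.10, adjusted p = 2.01e-26). In the cold regulon, COR15B had 0.887 and 0.766 CPM at 27 °C, against 10.9 and 10.8 CPM at 21 °C in wild type (difference 1.75 ± 0.24, adjusted p = 4.16e-08). ZAT10, a zinc-finger stress regulator, was not called in ein3 eil1 (log2 fold change 0.13 ± 0.13, adjusted p = 0.451). It had 4.91 and 3.42 CPM at 27 °C, against 10.9 and 10.3 CPM at 21 °C in wild type (difference 1.47 ± 0.20, adjusted p = 1.79e-08).

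Some warm inductions of wild type were smaller or not called in ein3 eil1. FTM1, a stearoyl-ACP desaturase gene, had 0.993 and 1.42 CPM at 27 °C, against 0.928 and 0.853 CPM at 21 °C in ein3 eil1. Its levels in ein2 were 7.198 and 7.06 CPM at 27 °C, against 9.87 and 8.54 CPM at 21 °C. In wild type it had 30.1 and 30.8 CPM at 27 °C, against 3.47 and 3.701 CPM at 21 °C, a rise not seen in the mutants (difference -2.64 ± 0.32, adjusted p = 1.47e-09 against wild type). ACO1, an ACC oxidase gene (AT2G19590), had 4.12 and 4.402 CPM at 27 °C, against 3.81 and 5.36 CPM at 21 °C in ein3 eil1. It rose in wild type, with 8.998 and 10.9 CPM at 27 °C, against 4.205 and 5.17 CPM at 21 °C (difference -1.22 ± 0.25, adjusted p = 0.000271). BIP1 (difference -0.24 ± 0.049, adjusted p = 0.000283) and BIP2 (difference -0.24 ± 0.049, adjusted p = 0.000253) responded more negatively than in wild type. PIF4 rose in both, less in ein3 eil1, with 101 and 98.4 CPM at 27 °C, against 66.2 and 67.3 CPM at 21 °C in wild type (difference -0.30 ± 0.068, adjusted p = 0.000991). In ein2 the PIF4 log2 fold change was 0.23 ± 0.05, and the difference from ein2 was not called (0.042 ± 0.069, adjusted p = 0.756). ASN1 rose in both, by a smaller fold change in ein3 eil1, with 38.2 and 38.96 CPM at 27 °C, against 1.95 and 2.23 CPM at 21 °C in wild type (difference -1.49 ± 0.17, adjusted p = 1.61e-10). The ASN1 difference from ein2 was not called (-0.15 ± 0.22, adjusted p = 0.709). Its levels in ein3 eil1 were above those of wild type at both temperatures. The mean went from 17.3 CPM in cool to 110.9 CPM in warm ein3 eil1, and from 2.09 to 38.6 CPM in wild type. In CPM the rise was thus larger in ein3 eil1.

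Other genes responded more positively in ein3 eil1 than in wild type, and some of these did not differ from ein2. GH3.3 was higher at 27 °C in ein3 eil1, with 12.8 and 12.6 CPM at 27 °C, against 9.38 and 6.45 CPM at 21 °C. In wild type it had 10.2 and 9.69 CPM at 27 °C, against 11.3 and 12.99 CPM at 21 °C (difference 1.02 ± 0.18, adjusted p = 1.42e-05). GH3.3 rose in ein2 too (log2 fold change 0.70 ± 0.11, adjusted p = 4.95e-07). Its difference from ein2 was not called (0.03 ± 0.17, adjusted p = 0.941). IAA2 (difference 0.62 ± 0.087, adjusted p = 6.96e-08) and IAA1 (difference 0.83 ± 0.18, adjusted p = 0.000388) also responded more positively than in wild type. Both did so against ein2 as well (0.53 ± 0.088, adjusted p = 2.44e-06 for IAA2 and 0.48 ± 0.18, adjusted p = 0.049 for IAA1). ARGOS rose in ein3 eil1, at low levels, and had 12.6 and 11.02 CPM at 27 °C, against 15.8 and 14.6 CPM at 21 °C in wild type (difference 1.81 ± 0.30, adjusted p = 5.42e-06). It rose in ein2 too (log2 fold change 0.77 ± 0.21, adjusted p = 0.00326). The ARGOS difference from ein2 was not called (0.68 ± 0.34, adjusted p = 0.176). WRKY30, a defence transcription factor, had 5.32 and 5.28 CPM at 27 °C, against 1.39 and 1.33 CPM at 21 °C in ein3 eil1. It had at most 0.792 CPM in any ein2 library and at most 0.652 CPM in any wild-type library (difference 2.52 ± 0.66, adjusted p = 0.00555 against wild type, and 3.79 ± 0.70, adjusted p = 1.81e-05 against ein2). PP2C5, a protein phosphatase, had 6.98 and 7.78 CPM at 27 °C, against 4.36 and 2.51 CPM at 21 °C in ein3 eil1. Wild-type levels were 0.7396 and 0.648 CPM at 27 °C, against 1.95 and 2.33 CPM at 21 °C (difference 2.76 ± 0.45, adjusted p = 4.25e-06). The PP2C5 difference from ein2 was not called (0.996 ± 0.53, adjusted p = 0.205). On the heat list, 3 genes responded more positively and 4 more negatively than in wild type (4.07% and 5.39% over all genes). Against ein2, none responded more positively and 7 more negatively (7.94% and 9.85% over all genes). HSP18.2, with 9.81 and 9.52 CPM at 27 °C, against 5.45 and 5.26 CPM at 21 °C in wild type, responded more negatively in both comparisons (difference -0.71 ± 0.21, adjusted p = 0.0157 against wild type). The difference of HSP18.2 was lost without warm replicate 1 or cool replicate 2 of ein3 eil1 or of wild type (-0.61 to -0.69). That of WRKY30 was lost without replicate 2 of warm (1.98) or cool (2.17) wild type.

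**Figure D4:**
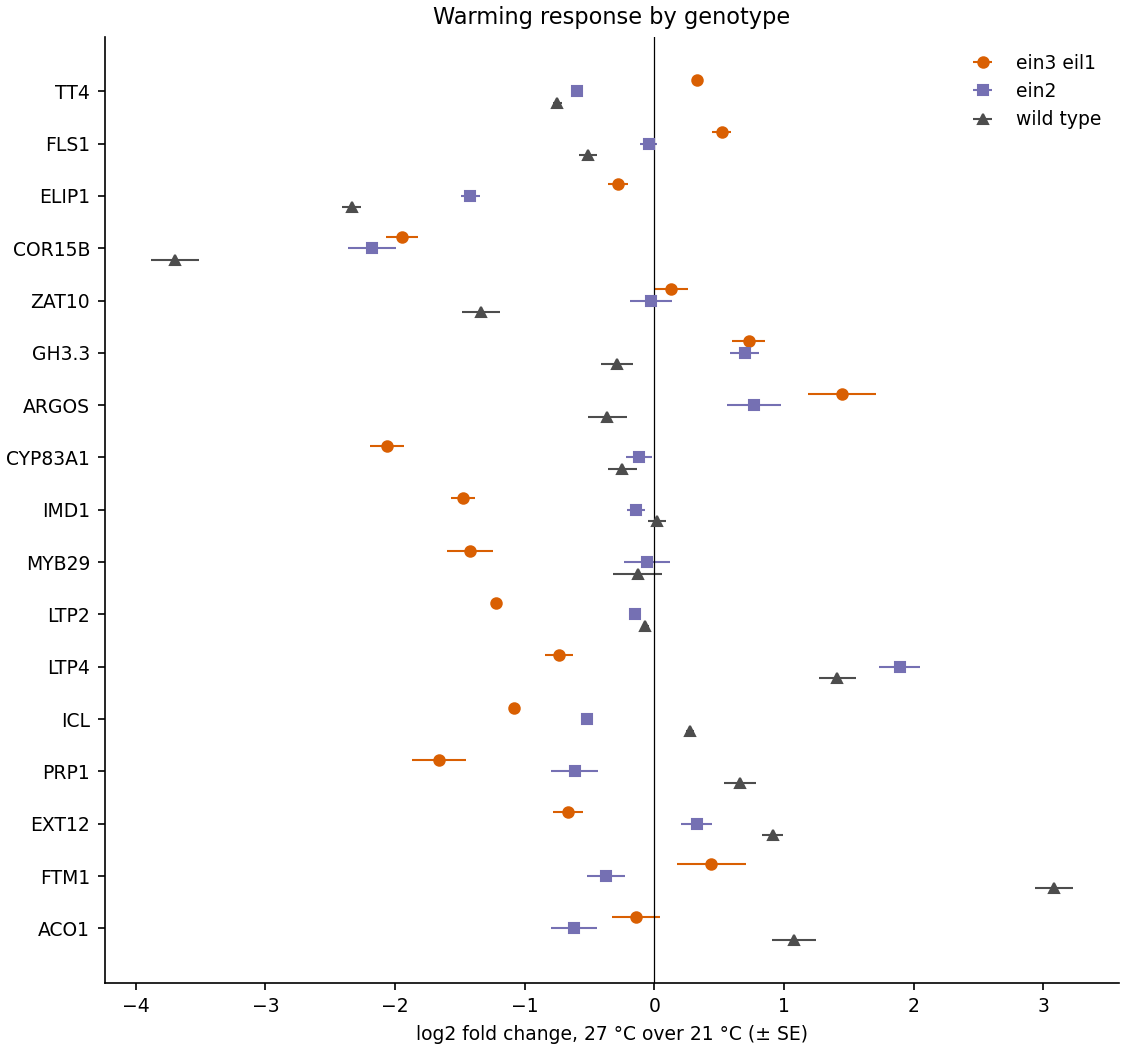
Log2 fold changes of 27 over 21 °C ± SE (horizontal axis) of 17 genes in ein3 eil1 (orange circles), ein2 (purple squares) and wild type (grey triangles), n = 2 libraries per genotype and temperature. TT4 stands at 0.33 in ein3 eil1 and -0.75 in wild type, LTP4 at -0.73 and 1.41, and CYP83A1 at -2.06 and -0.25.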

How the data were processed

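RNA was sequenced from whole Arabidopsis seedlings in 20 libraries of 10 groups (5 genotypes at 27 and 21 °C, 2 libraries each), after poly(A) selection per the labels' protocols. The authors deposited raw read counts per gene; per the file headers they came from featureCounts 2.0.3 on the Araport11 annotation, without the option that counts read pairs, so each mate of a fragment was counted, and without strand. The submitters' processing notes name FastQC, Trim Galore, STAR, TAIR10, DESeq2 and Subread 2.0.1. The column names of the deposited tables give the temperatures as 22 and 28 °C, where the labels give 21 and 27 °C; the labels' values are used here. The authors deposited log2 fold changes and adjusted p-values for the same comparison, which were used for one count of calls.

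Counts were fitted with edgeR 4.0.16 (R 4.3.3, limma 3.58.1): filterByExpr by group, TMM scaling, 1 mean per group over all 20 libraries, and the quasi-likelihood F test with Benjamini-Hochberg adjustment over 21987 genes. A gene is called at an adjusted p under 0.05. With 2 libraries a group, the spread rests on 10 residual and 59.6 prior degrees of freedom (median). The procedure was tested on simulated counts with known changes. CPM values use TMM-scaled library sizes, and counts per library ran from 24153109 to 47566071. The interval and the floor take each count as independent, though both mates of a fragment were counted, so they understate counting error. Replicate numbers did not pair the libraries, since the correlation of deviations of same-numbered libraries was -0.016 in ein3 eil1, -0.031 in ein2 and -0.015 in wild type. The alternatives were DESeq2 1.42.0 (its test and its size factors), no count filter, the compared genotypes alone, the replicate block, removal of a length trend, a minimum change of 1 log2 unit, removal of ribosomal RNA regions, and each library left out in turn. One more, without ribosomal RNA regions and organelle genes, was chosen after the data had been seen.

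The comparison, the gene lists and the tests were chosen with earlier results of these data known. Genes named are the mutated genes, EIN2, INO80 and LHP1, the 15 largest called changes in each direction with a symbol, at least 2 CPM in the higher group and no overlap between temperatures, the 10 largest called differences in each direction, and members of 14 gene lists and of the marker lists; few of them are described, and the aliphatic and indole glucosinolate and the extensin and proline-rich lists were added after values had been seen. The filter kept 21 of 22 heat genes, 26 of 27 ethylene, 33 of 36 iron, 15 of 16 sugar starvation, 22 of 23 flavonoid, 23 of 24 photosynthesis, 16 of 17 aliphatic glucosinolate and 19 of 20 root marker genes, and all members of the other lists. Gene symbols and promoters came from RefSeq TAIR10.1, in which 99.4% of the tested genes were matched, 99.4% of these with identical start and end.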

Additional observations from a re-analysis of the deposited data

Results flagged for a closer look

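For 28 differences of response given above, the warming effect in ein3 eil1 differed from that of another genotype by edgeR's quasi-likelihood test of the difference itself, at an adjusted p under 0.05. The values are log2 fold changes of ein3 eil1 minus those of wild type unless ein2 is named.

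More positive in ein3 eil1 were the flavonoid genes TT4 (1.08 against wild type and 0.93 against ein2), TT5 (1.07) and FLS1 (1.03), the light-stress gene ELIP1 (2.06), the cold and stress genes COR15B (1.75) and ZAT10 (1.47), the auxin genes GH3.3 (1.02), IAA1 (0.83) and IAA2 (0.62), and ARGOS (1.81), PP2C5 (2.76) and WRKY30 (2.52). TT4, TT5, FLS1, GH3.3, IAA1, IAA2, ARGOS, PP2C5 and WRKY30 were called higher at 27 °C in ein3 eil1. ELIP1 and COR15B were lower, and ZAT10 was not called. WRKY30 rests on very low counts in wild type. Against ein2, the differences of ELIP1, IAA1, IAA2 and WRKY30 were called as well, and those of GH3.3, ARGOS and PP2C5 were not.

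More negative were the glucosinolate genes CYP79F1 (-5.15), CYP83A1 (-1.82) and IMD1 (-1.49), the lipid transfer genes LTP4 (-2.14) and LTP2 (-1.15), the glyoxylate cycle gene ICL (-1.35), the wall gene EXT12 (-1.58), the proton pump gene AHA2 (-0.53), the desaturase gene FTM1 (-2.64), the ethylene synthesis gene ACO1 (-1.22), ASN1 (-1.49), PIF4 (-0.30), and the chaperones HSP18.2 (-0.71), BIP1 (-0.24) and BIP2 (-0.24). ASN1 and PIF4 rose in both genotypes, by a smaller fold change in ein3 eil1. Their differences from ein2 were not called (adjusted p = 0.709 and 0.756).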

How the results depend on the processing

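Counts of called genes stayed within 1.5 times of those reported under DESeq2, its size factors, no count filter, the compared genotypes alone, a length trend removed, the replicate block, and removal of ribosomal RNA regions with or without organelle genes. Without ribosomal RNA regions and organelle genes, 8076 genes were called for warming in ein3 eil1. Requiring a change of at least 1 log2 unit left 677 genes for warming in ein3 eil1, 460 in ein2 and 719 in wild type, and 241 differences from wild type and 323 from ein2, by construction. Leaving out 1 library at a time gave 6342 to 6658 genes in ein3 eil1, 4435 to 4612 in ein2 and 6761 to 7054 in wild type, and 1547 to 1704 differences from wild type and 3197 to 3421 from ein2. The replicate numbers did not pair the libraries; with the replicate block, 7894 genes were called in ein3 eil1, 5769 in ein2 and 8453 in wild type, and 1962 differences from wild type and 3733 from ein2.

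For 182 single-gene results, 2431 of 2478 values under these alternatives, the size minimum aside, kept their side of the threshold and, where called, their direction. In 16 results a call was lost under at least 1 alternative, in 3 a call was gained, and in 1 the direction turned. That 1 was HTA9, with 0.012 after the length trend was removed and 0.01 with the replicate block as well; the cause was not tested. The warming effect of PP2C5 in ein3 eil1 was not called without cool replicate 2 (0.76). CYP83A1 in wild type, at -0.25 and not called, was called with the compared genotypes alone (-0.246), the length trend removed (-0.27), ribosomal RNA regions and organelle genes removed (-0.26), or warm wild-type replicate 2 left out (-0.37). The BIP1 effect (0.079, not called) was called with the compared genotypes alone (0.085) and without ribosomal RNA regions (0.084, and 0.081 without organelle genes as well). Genes below about 1 CPM are limited by depth. With 2 libraries a group, the spread is shared over genotypes, and a lone library left in a group was assumed to vary like the others.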

Other observations

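Some gene families that the account above leaves out were grouped after the data had been seen, by the words of the RefSeq product names, and are given here as counts and medians without a test of the group. Of 282 genes for cytosolic ribosomal proteins, which build the translation machinery, 15 were higher and 207 lower at 27 °C in ein3 eil1, with a median log2 fold change of -0.56, beside 16.9% higher and 19.9% lower over all genes. In ein2, 35 were higher and 75 lower (median -0.023), and in wild type 6 were higher and 225 lower (median -0.55). The response of 207 of them was more negative in ein3 eil1 than in ein2 (9.85% over all genes). Against wild type it was more negative for 4 and more positive for 28 (5.39% and 4.07% over all genes). The share of counts in AT3G06365, given above for ein3 eil1, was 4.15% and 4.38% in cool and 4.40% and 3.61% in warm ein2. In wild type it was 6.39% and 6.56% in cool and 4.09% and 3.15% in warm libraries. Whether this took part in the contrast with ein2 was not tested. Of 44 histone genes, 1 was higher and 33 were lower (median -0.49), against 3 higher and 15 lower in ein2 (median -0.057) and 0 higher and 35 lower in wild type (median -0.64). The response of 28 histone genes was more negative than in ein2. With the length trend removed, 192 ribosomal protein genes and 29 histone genes were lower, with medians of -0.46 and -0.31. Of 87 DNAJ co-chaperone genes, which hand unfolded proteins to HSP70, 27 were higher and 7 lower.

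Some families of wall, transport and defence genes held members whose response differed from wild type. Of 62 peroxidase genes, 6 were higher and 26 lower in ein3 eil1 (median -0.27), against 5 higher and 24 lower in ein2 (median -0.31) and 17 higher and 7 lower in wild type (median 0.073). The response was more negative than in wild type for 21 and more positive for 2, and against ein2 these counts were 5 and 6. Over all genes, 5.39% were more negative and 4.07% more positive than in wild type, and 9.85% and 7.94% than in ein2. The peroxidase counts against ein2 lay near those shares, which are the background for each family of this paragraph. Of 23 expansin genes, which loosen walls, 1 was higher and 12 were lower (median -0.36), with 1 higher and 10 lower in ein2 (median -0.24). Of the expansins 9 responded more negatively than in wild type, while against ein2 4 were more negative and 2 more positive. Of 12 aquaporins of the plasma membrane, 6 were higher and 4 lower, and 4 responded more negatively than in ein2 and 6 more negatively than in wild type. Of 64 lipid transfer genes, 3 were higher and 39 lower (median -0.40), and 24 responded more negatively and 1 more positively than in ein2, and 16 more negatively and 3 more positively than in wild type. Of 58 WRKY genes, 5 were higher and 1 lower, shares below those over all genes, and 7 responded more positively than in wild type. These families hold close copies whose reads may be shared.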
